A study of Mus musculus with 6 samples.

Results

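Clec3b and 7 further genes that mark the fibroblasts of the vessel adventitia, namely Pi16, Dpt, Mfap5, Ly6a, Cd34, Igfbp6 and Igfbp5, were followed in bulk RNA-sequencing libraries made from whole TNF-Tg and WT lungs. These 8 genes were chosen by name, as genes known from the adventitial fibroblast, out of 49568 gene symbols in the count table, and all 8 were among the 19199 symbols that passed the filter on low counts. Clec3b was also selected on its fall in the TNF-Tg lungs, so its values are given as a description and without a test. TNF-Tg mice carry a human TNF transgene and develop arthritis and lung vascular disease with age, and WT mice are littermates without it. The sources used here name no promoter or cell type for the transgene, which the animals carry in all cells. Each group had 3 female C57BL/6 mice that were 4 months old, no treatment is named for either group, and each mouse gave 1 library of stranded poly(A) RNA. The question of the comparison was how the lungs of the 2 genotypes differ in expression.

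The adventitia is the outer sheath of arteries, veins and larger airways. Its fibroblasts make a loose collagen and elastic fiber matrix, carry stem cell antigen 1 (the product of Ly6a) and CD34 on their surface, and are often described as PI16-expressing fibroblasts, a state found in many organs. In the lung they sit beside the bronchovascular bundles, next to lymphatics and immune cells, and are told apart from the alveolar fibroblasts of the gas exchange area. Several of the 8 genes are also used by other cells. Cd34 and Ly6a are well known in endothelium and in blood-forming progenitors, Ly6a in lymphocytes as well, and the 2 IGF-binding proteins in smooth muscle and mesothelium. In whole lungs, fewer cells of a type and less RNA per cell cannot be told apart.

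The libraries held 25396923 to 30049463 counts in TNF-Tg lungs and 31400978 to 32529408 in WT lungs, so that 3 counts, taken as the smallest detectable level, stood at 0.0922 to 0.118 counts in 1000000 (CPM), which takes in counting error alone. The lowest count of any of the 8 genes in any lung was 94. In TNF-Tg replicate 1, 5.22% of counts lay on the single gene Gm42418. WT replicate 1 stood apart by transcripts of other tissues, whose source was not tested. Its summed normalized counts of 8 squamous epithelium markers were 104423, against 314 to 1017 in the other 5 lungs, and those of 8 skeletal muscle markers were 60237, against 499 to 1545. Counts of calls that changed without this lung are also given without it. Of all genes tested, 47.4% differed between the genotypes at an adjusted p under 0.05 (quasi-likelihood test of edgeR, Benjamini-Hochberg over all genes), 24.0% being higher and 23.4% lower in TNF-Tg lungs, and every count of calls below is to be read against these shares. The median log2 fold change of all genes tested was 0.03.

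The stretch before the transcription start is shown for Igfbp6 and Igfbp5, the 2 members with the largest tested falls, and for Cd34, the only member with a rise past the threshold. RefSeq promoters were matched for 5 of the 8 genes. The sequences are from GRCm38.p6, on the strand of the gene, and cover the bases from 220 to 21 upstream of the start, at chr15:102143966-102144165 (plus strand) for Igfbp6, chr1:72874886-72875085 (minus strand) for Igfbp5 and chr1:194938601-194938800 (plus strand) for Cd34. None of the 3 windows overlaps the GENCODE M21 model of its own gene, and overlap with other genes was not checked. Capitals mark matches, on either strand, to any of 6 motifs. These were the TATA box written as TATAAA, the GC box written as GGGCGG, an E-box of the letters CACGTG, the AP-1 site given by TGACTCA, the CCAAT box and the NF-kB motif.
Igfbp6: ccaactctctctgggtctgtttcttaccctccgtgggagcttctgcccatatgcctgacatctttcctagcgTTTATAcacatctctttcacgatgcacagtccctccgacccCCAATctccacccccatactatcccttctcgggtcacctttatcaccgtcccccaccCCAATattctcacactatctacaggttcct
Igfbp5: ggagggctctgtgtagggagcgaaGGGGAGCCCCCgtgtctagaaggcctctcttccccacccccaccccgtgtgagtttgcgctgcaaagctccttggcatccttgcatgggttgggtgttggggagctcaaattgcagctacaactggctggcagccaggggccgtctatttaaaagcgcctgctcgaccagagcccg
Cd34: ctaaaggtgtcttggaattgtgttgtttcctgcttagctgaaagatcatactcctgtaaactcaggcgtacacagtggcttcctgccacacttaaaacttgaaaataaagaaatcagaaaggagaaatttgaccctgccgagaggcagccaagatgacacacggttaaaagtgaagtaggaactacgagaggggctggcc
Igfbp6 had a TATAAA match on the opposite strand at 148 to 143 bases upstream and 2 CCAAT matches, at 107 to 103 and 50 to 46 bases upstream. Igfbp5 had 2 overlapping NF-kB matches, between 196 and 186 bases upstream, and Cd34 and Dpt had no match to any of the 6. In Pi16, whose RefSeq window lies inside an exon of the GENCODE gene and is not printed, there was 1 CCAAT match. Among 32851 mouse promoters, windows of the same length held TATAAA in 10.3%, GGGCGG in 28.7%, CACGTG in 4.91%, TGACTCA in 3.67%, CCAAT in 29.4% and the NF-kB motif in 4.05%. Igfbp6 and Igfbp5 shared no motif of the 6 in this window.

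Clec3b encodes tetranectin, a secreted C-type lectin that binds the kringle domains of plasminogen. The gene lies on chromosome 9 (123150946 to 123157432, plus strand; positions here and below are those of GENCODE M21 on GRCm38). It was the member with the widest gap between the genotypes. TNF-Tg lungs had 124, 98.3 and 101 normalized counts and WT lungs 2610, 2452 and 2260, which is a WT mean 22.6 times that of TNF-Tg lungs and a log2 fold change of -4.51. The groups lay far apart, and the spread within each was small, with a coefficient of variation of 13% in TNF-Tg and 7.18% in WT lungs. Leaving out any single lung kept it between -4.65 and -4.44. Among 13312 genes whose mean log2 CPM was 2 or more, only 6 had a lower log2 fold change. These values were what the gene was picked on.

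**Figure D1:**
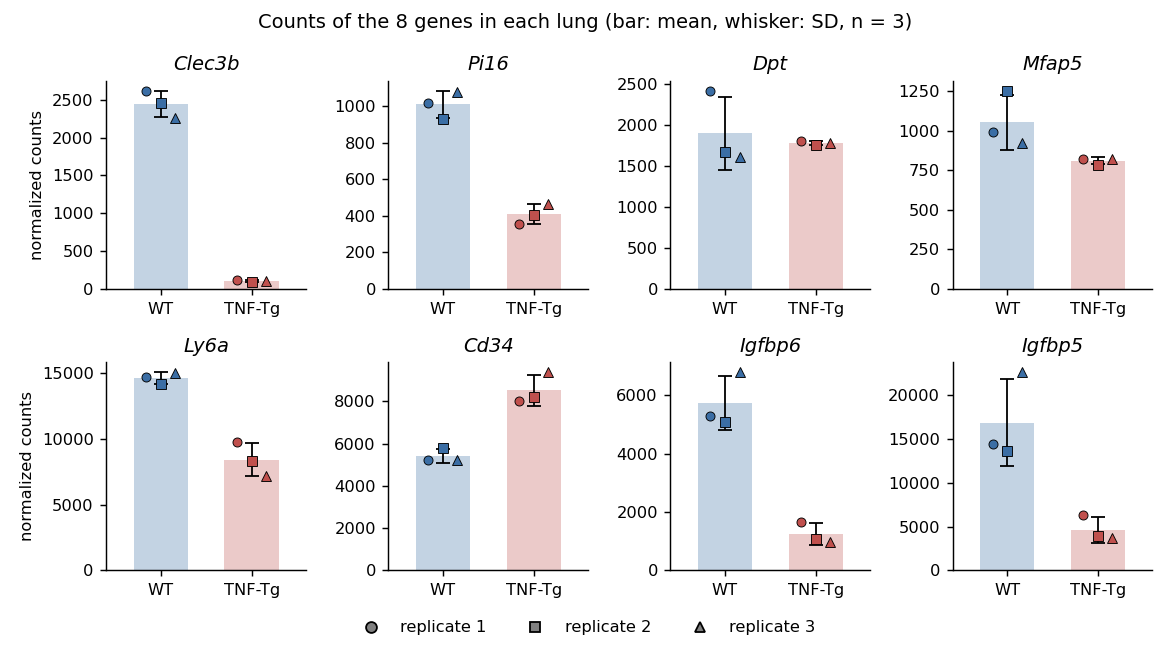
Normalized counts (y axis, linear from 0, a scale of its own for each gene) of the 8 genes in the 3 WT and 3 TNF-Tg lungs (x axis). Points are lungs, bars are group means and whiskers SD. Clec3b is near the floor of its panel in all 3 TNF-Tg lungs, Cd34 is the gene whose TNF-Tg lungs all lie above WT, and in Dpt the groups overlap, with WT replicate 1 at the top.

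The 2 secreted binding proteins of the insulin-like growth factors (IGFs) were lower in TNF-Tg lungs. IGF-binding protein 6 prefers IGF-II, and IGF-binding protein 5 binds both IGFs and attaches to the extracellular matrix. Igfbp6 (chromosome 15, 102144362 to 102149511, plus strand) had 1663, 1078 and 990 normalized counts in TNF-Tg lungs and 5300, 5103 and 6788 in WT lungs. The highest TNF-Tg lung was well under the lowest WT lung, and the mean was 4.61 times lower (log2 fold change -2.21, standard error 0.21, edgeR adjusted p = 0.000117). Igfbp5 (chromosome 1, 72857932 to 72874884, minus strand) had 6350, 3878 and 3678 in TNF-Tg lungs and 14425, 13580 and 22603 in WT lungs. It too was separated, at a mean 3.64 times lower (log2 fold change -1.87, standard error 0.27, edgeR adjusted p = 0.000893). Both genes had their highest TNF-Tg value in replicate 1 and their highest WT value in replicate 3. The summed counts of 7 mesothelial markers followed the same order at the top of each group, with 6160, 3096 and 3361 in TNF-Tg lungs and 7773, 5861 and 10896 in WT lungs, and so did those of 5 smooth muscle markers, with 17375, 16929 and 16614 in TNF-Tg lungs and 29512, 30577 and 35658 in WT lungs, where the groups did not overlap. The part of either in the values of Igfbp6 and Igfbp5 was not tested. Measured against the mean log2 CPM of the mesothelial markers in the same lung, the groups of both genes did not overlap. The TNF-Tg minus WT differences were -1.37 for Igfbp6 and -1.01 for Igfbp5. Against the pan-fibroblast, alveolar fibroblast and endothelial lists described below, Igfbp5 overlapped (-0.78, 0.72 and -0.73). Igfbp6 overlapped against the alveolar fibroblast list alone. Smooth muscle markers were not used as a reference.

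Pi16 encodes peptidase inhibitor 16, a membrane-anchored protein of the CAP family by which these fibroblasts are often named. Pi16 (chromosome 17, 29317680 to 29330593, plus strand) had 357, 406 and 467 normalized counts in TNF-Tg lungs and 1017, 932 and 1079 in WT lungs. The groups were apart, and the gene was lower in TNF-Tg lungs by 1.30 on the log2 scale (a log2 fold change of -1.30, standard error 0.13, edgeR adjusted p = 0.000132). An antisense gene of the annotation, AC162182.1, shares 222 exon bases with Pi16 and has no row of its own in the table, so with the strand setting of the counting unknown its reads cannot be told from those of Pi16.

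The matrix proteins of the group moved little. Dermatopontin, the product of Dpt, binds decorin and helps collagen fibrils form, and microfibril-associated glycoprotein 2, the product of Mfap5, decorates the fibrillin microfibrils. Dpt (chromosome 1, 164796644 to 164824266, plus strand) had 1799, 1750 and 1783 normalized counts in TNF-Tg lungs and 2414, 1667 and 1607 in WT lungs. The TNF-Tg lungs lay inside the WT range (log2 fold change -0.10, standard error 0.16, edgeR adjusted p = 0.639). The high WT lung was replicate 1, the lung high in squamous epithelium and muscle markers, and without it the log2 fold change was 0.09 with an adjusted p of 0.478. Mfap5 (chromosome 6, 122505845 to 122529290, plus strand) had 824, 785 and 821 in TNF-Tg lungs and 990, 1252 and 922 in WT lungs. The groups did not overlap, but the highest TNF-Tg lung and the lowest WT lung were close (log2 fold change -0.38, standard error 0.13, edgeR adjusted p = 0.0379). This call was lost without TNF-Tg replicate 1 (adjusted p = 0.0708), replicate 2 (0.107) or replicate 3 (0.0708), and without WT replicate 2 (0.116). The log2 fold change was -0.43, -0.36 and -0.41 without those TNF-Tg lungs in turn and -0.25 without WT replicate 2.

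The 2 surface markers went opposite ways. Ly6a encodes stem cell antigen 1, a small protein anchored in the membrane by a glycolipid, and Cd34 encodes a heavily glycosylated transmembrane sialomucin. Ly6a (chromosome 15, 74994877 to 74998031, minus strand) had 9737, 8331 and 7190 normalized counts in TNF-Tg lungs and 14678, 14136 and 14993 in WT lungs. Its groups were apart (log2 fold change -0.80, standard error 0.13, edgeR adjusted p = 0.00173). Of the 100-base windows of its transcripts, 1.45% (19 of 1311) also occur in Ly6c1, and none of the other 7 members shared such a window with another gene. Cd34 (chromosome 1, 194938819 to 194961279, plus strand) had 8009, 8210 and 9368 in TNF-Tg lungs and 5245, 5812 and 5234 in WT lungs. All 3 TNF-Tg lungs were above all WT lungs, at a mean 1.57 times higher (log2 fold change 0.65, standard error 0.11, edgeR adjusted p = 0.00175). Its antisense partner Gm16897 shares 148 exon bases with it and had 2 to 13 counts per lung, against 5512 or more for Cd34.

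Of the 7 members other than Clec3b, 5 were lower, 1 was higher and 1 did not pass the threshold, and their median log2 fold change was -0.80, beside 0.03 for all genes tested. The counts were the same without WT replicate 1. In 5 of the 7 every TNF-Tg lung was under every WT lung, which held for 28.1% of all genes tested, and in 1 every TNF-Tg lung was over every WT lung, which held for 30.6%. With a minimum change of 1 on the log2 scale, 3 of the 7 were called (Igfbp6, Igfbp5 and Pi16), beside 22.5% of all genes tested. Since the members were chosen with results of these lungs known, these counts describe them and are no test of the group.

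Levels per length, as counts per kilobase of annotated exon after scaling to a TMM total of 1000000, placed the 8 genes on one scale. In WT lungs the order was Ly6a (mean 400), Igfbp6 (170), Igfbp5 (92.8), Clec3b (81.3), Dpt (36.3), Cd34 (24.6), Mfap5 (9.70) and Pi16 (5.24). Only the neighbours Igfbp5 and Clec3b overlapped there, at 74.7 to 124 and 75.2 to 86.9. In TNF-Tg lungs Ly6a was again the highest at a mean level per length of 231, and Cd34 (38.6), Igfbp6 (36.9), Dpt (34.0) and Igfbp5 (25.5) followed, each overlapping its neighbour in the order. Mfap5 (7.45), Clec3b (3.59) and Pi16 (2.13) came last and did not overlap. Clec3b thus stood at rank 4 in WT and 7 in TNF-Tg lungs, still above Pi16, and Cd34 at rank 6 in WT and 2 in TNF-Tg lungs. The order between genes depends on the exon length used, from 992 bases for Clec3b to 7290 for Cd34. Which transcripts were present was not measured.

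**Figure D2:**
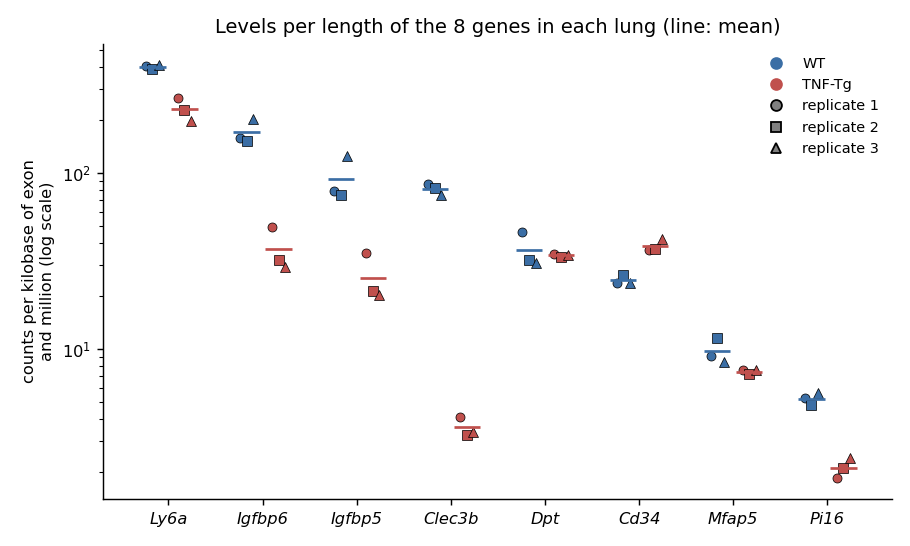
Level per length of the 8 genes, in counts per kilobase of exon at a total of 1000000 (y axis, log scale), for each lung, with genes ordered by their WT mean (x axis). Marker shapes are replicates and short lines are group means. Levels in WT lungs span 5.24 (Pi16) to 400 (Ly6a), and Clec3b drops from a mean of 81.3 to 3.59.

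The 8 genes were set beside 17 further genes known from adventitial fibroblasts that had rows in the table. Creb5, also on that list, was not analysed here. Of the 17, 9 were lower and 2 were higher in TNF-Tg lungs, and 6 did not pass the threshold, which is 64.7% called beside 47.4% of all genes, and the median log2 fold change was -0.76. The counts were the same without WT replicate 1. Tnxb, which encodes the matrix protein tenascin-X, had 1312 ± 119 normalized counts in TNF-Tg lungs and 13465 ± 697 in WT lungs (mean ± SD, n = 3 each), a log2 fold change of -3.36 (standard error 0.12, edgeR adjusted p = 2.72e-06). Pcolce2, an enhancer of procollagen processing, was at 672 ± 130 and 6182 ± 1339 (log2 fold change -3.20, edgeR adjusted p = 1.75e-05). Gsn, which encodes the actin-severing protein gelsolin and is used by many cell types, was at 18521 ± 1994 and 111017 ± 17060 (log2 fold change -2.59, edgeR adjusted p = 2.64e-05). Scara5, a ferritin receptor, changed by -2.25 on the log2 scale, and the collagen gene Col14a1 by -1.74. Sema3c, Dpp4, Serpinf1 and Ackr3 were the other 4 that fell, with log2 fold changes between -1.38 and -0.69.

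The 2 that rose were Procr, the endothelial protein C receptor, and Cd55, which encodes the complement regulator decay-accelerating factor. Procr had 764, 728 and 617 normalized counts in TNF-Tg lungs and 145, 121 and 189 in WT lungs (log2 fold change 2.21, standard error 0.19, edgeR adjusted p = 5.76e-05). Cd55 had 2350, 1556 and 2122 against 1090, 963 and 1155 (log2 fold change 0.91, standard error 0.16, edgeR adjusted p = 0.00204). Neither gene is particular to fibroblasts. The 6 that did not pass were the alarmin Il33 (log2 fold change -0.16), the eotaxin gene Ccl11 (-0.21), Cd248 (-0.13), Anxa3 (-0.14), Ebf2 (-0.95) and Efhd1 (-0.71), of which Ebf2 and Efhd1 still had groups that did not overlap.

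**Figure D3:**
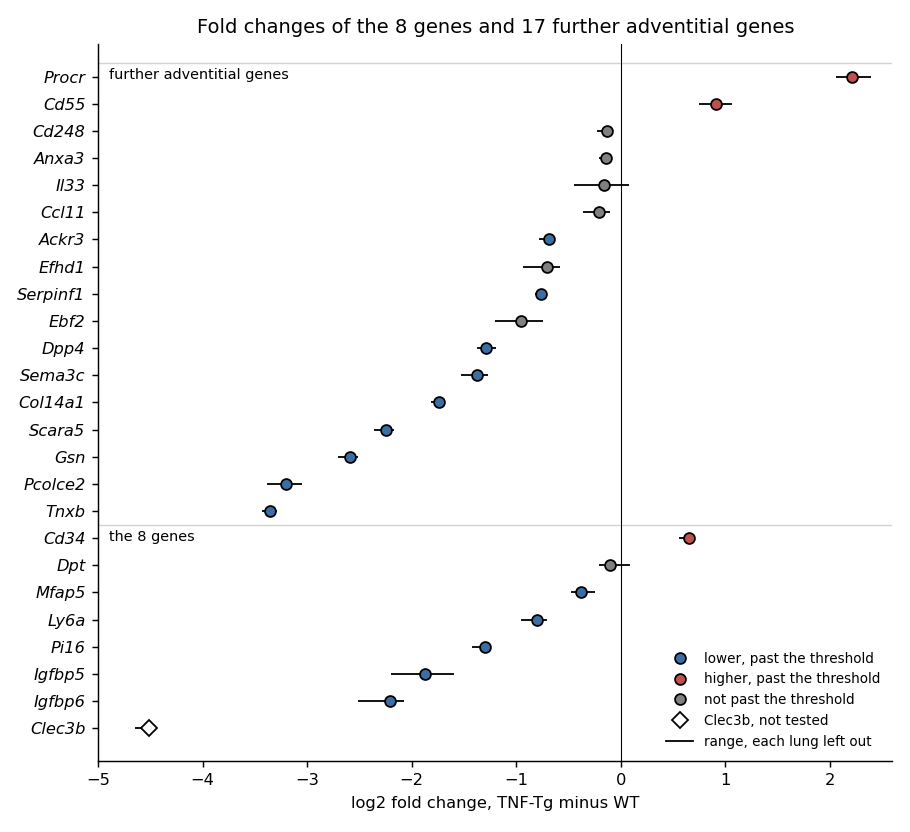
Log2 fold change, TNF-Tg minus WT (x axis), of the 8 genes and 17 further adventitial genes (y axis). Circles are values from all 6 lungs, coloured by the test, the open diamond is Clec3b, which was not tested, and lines span the values when any single lung was left out. Clec3b is at -4.51, lower than any of the other 24 genes shown, and Cd34, Cd55 and Procr are the genes that rose.

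Other fibroblast genes fell in the same lungs. All 10 alveolar fibroblast genes were lower in TNF-Tg lungs (median log2 fold change -2.32). Among them, Slc7a10, an amino acid transporter, had 18.7 ± 24.0 and 1346 ± 253 normalized counts in TNF-Tg and WT lungs (mean ± SD, n = 3 each; log2 fold change -6.06, edgeR adjusted p = 0.000188). TNF-Tg replicate 3 was at 46.3 normalized counts, against 2.64 and 7.25 in the other TNF-Tg lungs, and without it the log2 fold change was -8.00. The growth factor receptor gene Fgfr4 was at 70.7 ± 21.5 and 1585 ± 412, a log2 fold change of -4.50, close in size to that of Clec3b. The ligand Wnt2 changed by -3.04 on the log2 scale. Of 12 genes shared by most fibroblasts (the pan-fibroblast list), 10 were lower and 2, Dcn and Lum, did not pass, with a median of -0.86. With any single lung left out 7 to 10 were lower. Without WT replicate 1 the number was 7, and the 3 genes no longer called, Col1a2, Pdgfra and Mmp2, had log2 fold changes of -0.58, -0.58 and -0.51 there, against -0.59, -0.66 and -0.49 with all lungs. Their calls were also lost without WT replicate 2 and, for each gene, without either 2 or 3 of the TNF-Tg lungs taken singly. Fbln1 (-3.23), Col3a1 (-1.74) and Col6a2 (-1.42) had the largest log2 fold changes of that list. Of 9 tested genes of activated fibroblasts, 4 were higher and 3 lower. The largest change was the rise of the chemokine gene Ccl19, at 4570 ± 1090 against 106 ± 20 normalized counts (log2 fold change 5.43, edgeR adjusted p = 4.19e-06). Timp1 (1.30), Cxcl12 (1.29) and Postn (1.03) also rose. Cthrc1 (-0.78), Tnc (-0.78) and Pdpn (-0.71) fell, and Fap (-0.15) and Thy1 (0.40) did not pass. The call of Cthrc1 was lost in 5 of the sets with a lung left out. With any single lung left out 4 or 5 were higher and 2 or 3 lower, and 2 were lower without WT replicate 1.

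Each member was then measured against the mean log2 CPM of the 12 pan-fibroblast genes in the same lung, as values with no test. On this scale the TNF-Tg minus WT difference was -3.40 for Clec3b and -1.14 for Igfbp6, both with groups apart. Cd34 (1.73), Dpt (1.02) and Mfap5 (0.72) were higher in every TNF-Tg lung than in every WT lung relative to the same list. For Pi16 (-0.22), Ly6a (0.28) and Igfbp5 (-0.78) the groups overlapped. The mean difference over the 7 members other than Clec3b was 0.23, where the SD of the lungs within groups, pooled over both groups, was 0.19. This mean averaged members that went opposite ways, and its groups overlapped. It was 0.14 without WT replicate 2, 0.16 without WT replicate 1 and 0.38 without WT replicate 3. Relative to the 10 alveolar fibroblast genes, Clec3b still lay lower in TNF-Tg lungs (-1.89), while Pi16 (1.29), Dpt (2.52), Mfap5 (2.22), Ly6a (1.78) and Cd34 (3.24) lay higher with groups apart. Igfbp6 (0.36) and Igfbp5 (0.72) overlapped against that list. Against both fibroblast lists, and against the endothelial and mesothelial markers, Clec3b was lower and Cd34 higher in every TNF-Tg lung than in every WT lung. None of the other 6 members stayed apart in 1 direction against all 4 lists. The endothelial and mesothelial lists were not planned as references.

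**Figure D4:**
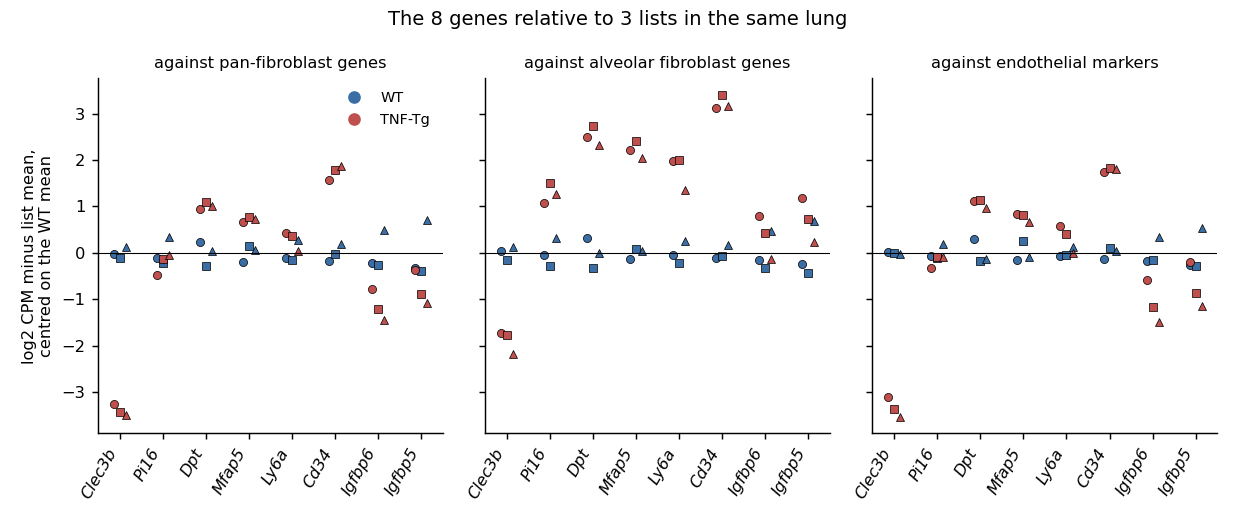
Log2 CPM of each of the 8 genes minus the mean log2 CPM of a list in the same lung (y axis, centred on the WT mean of each gene), for the pan-fibroblast, alveolar fibroblast and endothelial lists. Each point is a lung. Clec3b is under 0 in every TNF-Tg lung in all 3 panels, Cd34 is above, and against the alveolar fibroblast genes 5 of the other 7 members lie above their WT lungs.

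Families of the members were described next, beginning with the IGF system. Of 13 IGF genes other than the 2 members, 4 were higher, 4 were lower and 5 did not pass (median log2 fold change 0.09). The ligand Igf1 had 1602, 1306 and 1464 normalized counts in TNF-Tg lungs and 229, 351 and 227 in WT lungs, so it was higher in all 3 TNF-Tg lungs (log2 fold change 2.44, standard error 0.19, edgeR adjusted p = 3.85e-05). The binding protein genes did not move together. Igfbp2 was lower, at 1021 ± 167 and 4010 ± 624 (log2 fold change -1.97, edgeR adjusted p = 4.49e-05), like Igfbp5 and Igfbp6. Igfbp7, whose product binds IGFs weakly, was higher, at 26098 ± 2126 and 7258 ± 1071 (log2 fold change 1.84, edgeR adjusted p = 4.51e-05).

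Of 10 tested Ly6 family genes besides Ly6a, 3 were higher, 3 lower and 4 did not pass. The number lower was 1 without TNF-Tg replicate 1, when Ly6c1 (adjusted p = 0.0657 in edgeR) and Ly6g6c were no longer called, 3 without WT replicate 3, and 2 with any of the other 4 lungs left out singly, WT replicate 1 among them. Ly6i, which lies in the same gene cluster as Ly6a, had 2541, 3802 and 2486 normalized counts in TNF-Tg lungs and 140, 195 and 465 in WT lungs (log2 fold change 3.46, standard error 0.43, edgeR adjusted p = 0.000396). The highest WT lung was replicate 3, and without it the log2 fold change was 4.13. Gpihbp1, which carries lipoprotein lipase across capillary endothelium, was lower (log2 fold change -1.44, edgeR adjusted p = 0.000102). Ly6g6c had 481 normalized counts in WT replicate 1, against 64.3 and 56.9 in the other WT lungs and 13.2 to 27.4 in TNF-Tg lungs. Its log2 fold change of -3.29 (edgeR adjusted p = 0.016) was -1.59 without WT replicate 1 (adjusted p = 0.0102), and the call was lost without TNF-Tg replicate 1 (adjusted p = 0.0534) or replicate 2 (0.0568). Genes of this family resemble one another, and shared sequence was measured here for Ly6a alone.

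The sialomucins related to Cd34 were divided as well. Podxl, which encodes podocalyxin of endothelium and mesothelium, had 5211, 7027 and 6730 normalized counts in TNF-Tg lungs and 19691, 20100 and 14654 in WT lungs (log2 fold change -1.52, standard error 0.17, edgeR adjusted p = 0.000253). Emcn, which encodes the endothelial sialomucin endomucin, was higher like Cd34, with 3558, 2829 and 3614 against 1551, 1961 and 1727 (log2 fold change 0.93, standard error 0.13, edgeR adjusted p = 0.000778). Podxl2 was lower, at 201 ± 35.4 and 375 ± 35.2 normalized counts (mean ± SD, n = 3 each; log2 fold change -0.90, edgeR adjusted p = 0.00307).

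Of 9 tested genes of the plasminogen system, to which tetranectin binds, 3 were higher, 1 was lower and 5 did not pass (median log2 fold change 0.18). That is 44.4% called, no more than the 47.4% of all genes tested. Among those that rose, the urokinase gene Plau was at 550 ± 55.8 normalized counts in TNF-Tg and 215 ± 41.7 in WT lungs (mean ± SD, n = 3 each; log2 fold change 1.35, edgeR adjusted p = 0.000457). The plasminogen receptor gene Plgrkt was at 1494 ± 68.2 and 791 ± 112 (log2 fold change 0.92, edgeR adjusted p = 0.000525). Plasminogen itself, Plg, was not tested because of low counts. The 1 that fell was Plat, whose call was kept without WT replicate 3 and lost without each of the other 5 lungs. The number lower was thus 0 without WT replicate 1.

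Of 11 microfibril and elastic fiber genes, the partners of Mfap5, 1 was higher, 5 were lower and 5 did not pass (median log2 fold change -0.62). Ltbp2, a fibrillin-binding protein gene, was at 27281 ± 3486 and 5842 ± 736 normalized counts (log2 fold change 2.22, edgeR adjusted p = 2.34e-05). Fbln5 (-1.53) and Mfap2 (-1.19), which belongs to the same small glycoprotein family as Mfap5, were lower. Of 9 small leucine-rich proteoglycan genes, which include Dcn, the binding partner of dermatopontin, 2 were higher, 3 were lower and 4 did not pass (median -0.37). Prelp (-1.74) and Podn (-1.35) fell and Aspn (1.67) rose, as log2 fold changes. With any single lung left out, 1 or 2 were higher and 2 to 4 lower, with 2 higher and 2 lower without WT replicate 1. The call of Fmod, which was higher, was lost in 4 of these 6 sets (TNF-Tg replicate 1 or 2, or WT replicate 2 or 3 left out), and that of Ogn, which was lower, also in 4 (TNF-Tg replicate 2 or 3, or WT replicate 1 or 2). Without WT replicate 1 the log2 fold change of Ogn was -0.68, against -0.79 with all lungs.

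**Figure D5:**
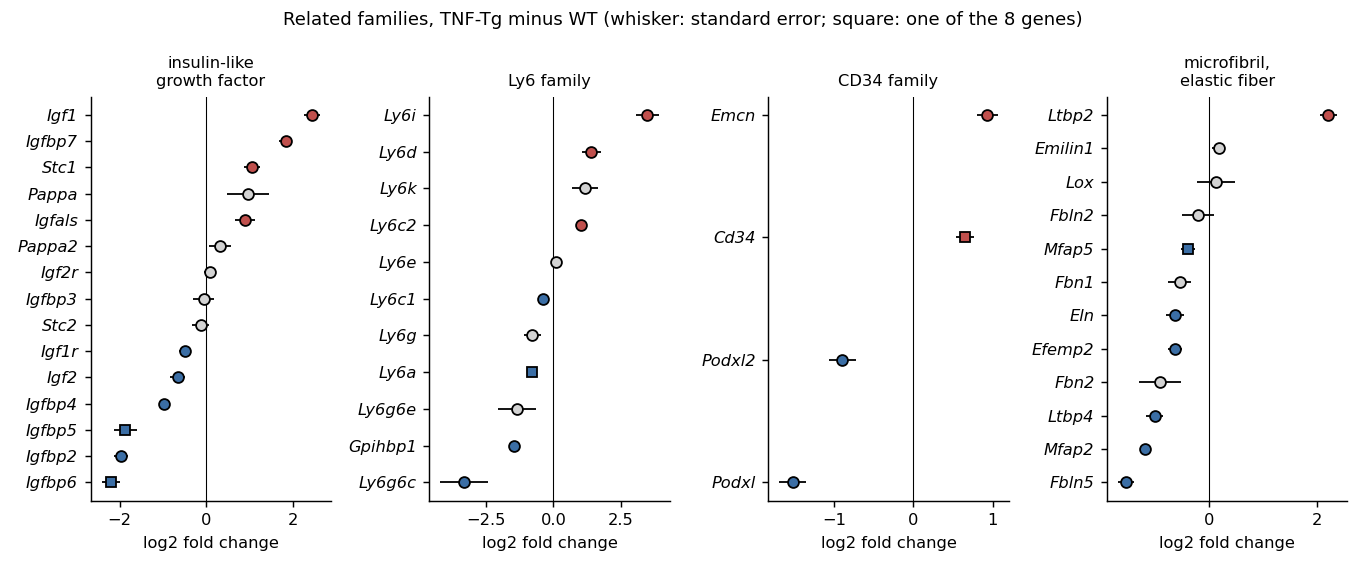
Log2 fold change, TNF-Tg minus WT (x axis, a scale of its own for each panel), with its standard error as a whisker, for IGF, Ly6, CD34 and microfibril genes. Squares are genes of the group of 8, red is higher and blue lower past the threshold, and grey did not pass. Igfbp6 and Igfbp5 lie with Igfbp2 at the low end of the IGF panel and Igf1 at the high end, and Cd34 lies with Emcn above 0.

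Markers of other cell types moved with the genotype, and their part in the members' values was not tested. All 8 endothelial markers were lower, with summed normalized counts of 48876 to 56050 in TNF-Tg and 95834 to 110728 in WT lungs. Cd34 rose, and endothelial genes named above but outside this list were divided. Emcn and Procr were higher, and Podxl and Gpihbp1 were lower. Relative to the mean of the 8 endothelial markers in the same lung, Cd34 was at 0.75 to 0.84 in TNF-Tg and -1.11 to -0.89 in WT lungs on the log2 scale. Ly6a overlapped, at 0.45 to 1.03 and 0.37 to 0.57. Of the 7 leukocyte markers 5 were higher and none was lower, with sums of 238766 to 268979 against 88463 to 89899. Of the 5 lymphatic markers 3 were lower (sums 6727 to 7463 and 11991 to 15975), of the 5 smooth muscle markers 4 (16614 to 17375 and 29512 to 35658), and of the 5 pericyte markers 4 (5689 to 7809 and 12048 to 13208). Without WT replicate 1 these numbers were 2, 5 and 3, and the lymphatic count was also 2 without TNF-Tg replicate 3 or WT replicate 2. Of the 7 mesothelial markers 4 were lower, with sums that overlapped as given above. All 6 cardiac muscle markers were lower (8822 to 10986 and 32363 to 42177), as were 4 of the 6 alveolar epithelium markers (381663 to 500745 and 619136 to 739224).

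Markers of squamous epithelium, skeletal muscle, fat and cartilage were also counted. Of the 5 squamous epithelium markers tested 4 were lower, of the 7 skeletal muscle markers tested 3, and without WT replicate 1 these numbers were 3 and 1. With any single lung left out they ran from 0 to 5 and from 0 to 7, being lowest without a TNF-Tg lung. Of the 4 fat cell markers tested 1 was lower (0 to 4 with a lung left out, 4 being without TNF-Tg replicate 3; sums 114 to 1153 and 1032 to 2080), and of the 2 cartilage markers tested 1 was higher and 1 lower (351 to 735 and 1820 to 2548). Among defining markers, Krt13, Lep, Acan and Matn1 had no count in 1 or more lungs, and every gene of the endothelial, leukocyte and mesothelial lists was counted in all 6 lungs.

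The genes whose pattern over the 6 lungs was nearest to that of Clec3b were found by the root mean square difference of log2 CPM, each centred on its mean, among 13304 genes. The nearest were Xpnpep2, an aminopeptidase gene (0.191), the alveolar fibroblast gene Fgfr4 (0.234), Nrgn (0.371), the amino acid transporter Slc38a5 (0.374), Faim2 (0.379) and Scube2 (0.419), in log2 units. Xpnpep2 had 38.2, 20.7 and 22.7 normalized counts in TNF-Tg lungs and 670, 706 and 713 in WT lungs. Of the other members the nearest was Igfbp6, at a distance of 1.15, then Igfbp5 (1.34), Pi16 (1.61), Ly6a (1.84), Mfap5 (2.06), Dpt (2.21) and Cd34 (2.57). Since Clec3b was picked for a large fall, its nearest genes are other genes with a large fall, and this order is a description.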

How the data were processed

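RNA with poly(A) tails was taken from the lungs of 3 TNF-Tg and 3 WT mice and sequenced as single-end reads of 100 bases. Per the submitters' processing notes, reads were cleaned with Trimmomatic (version 0.36), mapped to GRCm38.p5 with STAR (version 2.5.2b) and counted with featureCounts. The strand setting and the annotation used for counting are not given in the sources used here. The authors deposited raw counts per gene symbol, without normalization, and all 6 columns were matched to their mouse by genotype and number.

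The genotypes were compared with edgeR (version 4.0.16, in R version 4.3.3). Genes were filtered with filterByExpr, totals were scaled by TMM, and a quasi-likelihood test of genotype alone was run on 19199 genes, with a Benjamini-Hochberg threshold of 0.05. The standard error is the size of the log2 fold change divided by the square root of F. To obtain normalized counts, each count was divided by its TMM-scaled library total and brought back to the average total of the 6 lungs. Log2 CPM used a prior count of 2. Levels per length used the union of GENCODE M21 exons. The programs were tested on simulated data. Nothing in the sources says that the lungs were processed in batches. The p-values set the difference between the genotypes against the spread between these mice.

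The 8 genes and all gene lists were chosen with earlier results of these data known. Named from each list were up to 3 genes with the largest log2 fold change among those past the threshold whose groups did not overlap and whose mean log2 CPM was at least 0, all of the further adventitial genes, and the 6 genes nearest to Clec3b in pattern among genes whose mean log2 CPM was 2 or more. Dcn, Lum, Col1a2, Pdgfra, Mmp2, Postn, Cthrc1, Tnc, Pdpn, Fap, Thy1, Ly6c1, Fmod, Ogn, Plat, Plg and markers without a count were named after values were seen. No list was put to a set test, and values of a few listed genes are left out of the text. Alternatives tried were the tests of DESeq2 (version 1.42.0) and limma-voom (version 3.58.1), scaling by the size factors of DESeq2 or by totals alone, no low-count filter or one of 10 counts in every lung, robust dispersion, a replicate block, leaving out each lung, requiring an absolute log2 fold change of 1, and other reference lists.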

Additional observations from a re-analysis of the deposited data

How the results depend on the processing

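Under the alternatives, Pi16, Igfbp6 and Igfbp5 kept their direction and stayed past the threshold in all 15 settings each, and Ly6a and Cd34 in 14 of 15, the exception being a minimum absolute log2 fold change of 1. That minimum left 4320 of the 9096 genes called and 3 of the 7 members. Mfap5 was negative throughout, with an adjusted p between 0.0159 and 0.116. Dpt ranged from -0.21 to 0.09 on the log2 scale with a lung left out, the positive value of 0.09 coming without WT replicate 1, and the cause was not tested. The mean of the 7 members relative to the pan-fibroblast genes, 0.23, was 1.73 with the alveolar fibroblast genes as the reference. It was 0.29 with the endothelial markers, which were not a planned reference, and 0.00 with the mesothelial markers, a reference chosen after seeing the data. The mean relative to the pan-fibroblast genes was between 0.14 and 0.38 with a lung left out. With each lung left out, 7347 to 9164 genes were called. The median log2 fold change of all genes moved by less than 0.1 in every setting.

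The replicate numbers of the labels name different animals, and same-numbered lungs did not deviate together (correlations of -0.149, -0.00429 and -0.242 across genes, against a mean of 0.066 over the other pairs). With the number as a replicate block, 7686 genes were called and 5 of the 7 members, Mfap5 being the member lost (log2 fold change -0.37, edgeR adjusted p = 0.075). Depth set no limit on the members, whose lowest count was 94. The strand setting of the counting was not known, which bears on Pi16 and its antisense partner.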
